A study of Drosophila melanogaster with 4 samples.

Results

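The regions described here are the H3K27ac clusters of chromosome 4 and of sequence in or next to the heterochromatin around the fly centromeres. They were chosen by position alone. No mark or border of heterochromatin was used, so the arm ends taken may include ordinary arm sequence. A cluster was taken if it lay on chromosome 4, on a sequence whose name ends in Het, or in the last 2 Mb of the assembled arm 2L (start at 21011545 or above), 3L (22543558 or above) or X (20422828 or above). Merging the overlapping clusters of both ChIP replicates gave 246 such regions of 6140 in all, with 69 on chromosome 4, 123 in the proximal arm ends and 54 on the Het sequences. The chosen sequence spans 16.6 Mb, which is 9.86% of the 168.7 Mb listed by the authors, and held 3.95% of the clusters of replicate 1 and 4.10% of those of replicate 2.

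Acetylation of lysine 27 of histone H3 (H3K27ac) was profiled by ChIP-seq, the sequencing of immunoprecipitated chromatin, using an Active Motif antibody in nuclei from heads of wild-type Oregon-R flies, a standard laboratory strain, of mixed adult stage. The series has 2 ChIP libraries and 2 input libraries, and the inputs entered only through the authors' cluster calls. The flies came from population cages, and neither their sex nor whether the replicates were separate collections is given, so the spread between replicates may be technical. The files name no genes, and the head origin could not be checked against marker genes. Heads hold many cell types, and a mark present in few cells cannot be told apart from a weak mark in many.

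Histone acetylation at this lysine is laid down by the CBP acetyltransferase (Nejire in flies) at active promoters and enhancers, and it excludes methylation of the same residue by Polycomb. Pericentromeric heterochromatin is rich in transposons and satellite repeats and is marked by methylated H3K9 and the protein HP1a, yet a number of essential genes lie and are expressed within it. Chromosome 4, the dot chromosome, is a small autosome in which H3K9 methylation and HP1a are interspersed with active genes, and the protein POF binds those genes in particular. In release 5 of the genome, the Het sequences are scaffolds of mapped heterochromatin that were not joined to the arms.

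H3K27ac covered nearly as much of chromosome 4 as of the ordinary chromosome arms (0.93 ± 0.02 times the share), much less of the last 2 Mb of 2L, 3L and X (0.35 ± 0.01 times) and little of the Het sequences (0.073 ± 0.0033 times). The covered share of chromosome 4 was 21.6% in replicate 1 and 22.6% in replicate 2. In the proximal arm ends it was 8.17% and 8.64%, and on the Het sequences 1.66% and 1.79%, against 23.6% and 23.9% for the rest of the arms. The rest means all of 2R and 3R and the other parts of 2L, 3L and X. All shares are of the full listed length. Bases that cannot hold uniquely placed reads were not taken out, so low coverage cannot be told apart from missing reads. These class values did not overlap between replicates, but the rest pools unlike arms. Its covered share ran from 21.1% and 21.3% for the rest of 2L to 27.5% and 28.9% for the rest of the X. Chromosome 4 thus lay within the range of the single arms. Chromosome 4 had 12.8 ± 0.27 times the covered share of the Het sequences and 2.63 ± 0.02 times that of the proximal ends (values with ± are the mean and SD over n = 2 replicates). The proximal ends had 4.87 ± 0.07 times the share of the Het sequences. With 2 replicates an exact sign-flip permutation test of a difference between classes cannot give a p below 0.5, so differences are set against the spread between replicates and no test was run.

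**Figure D1:**
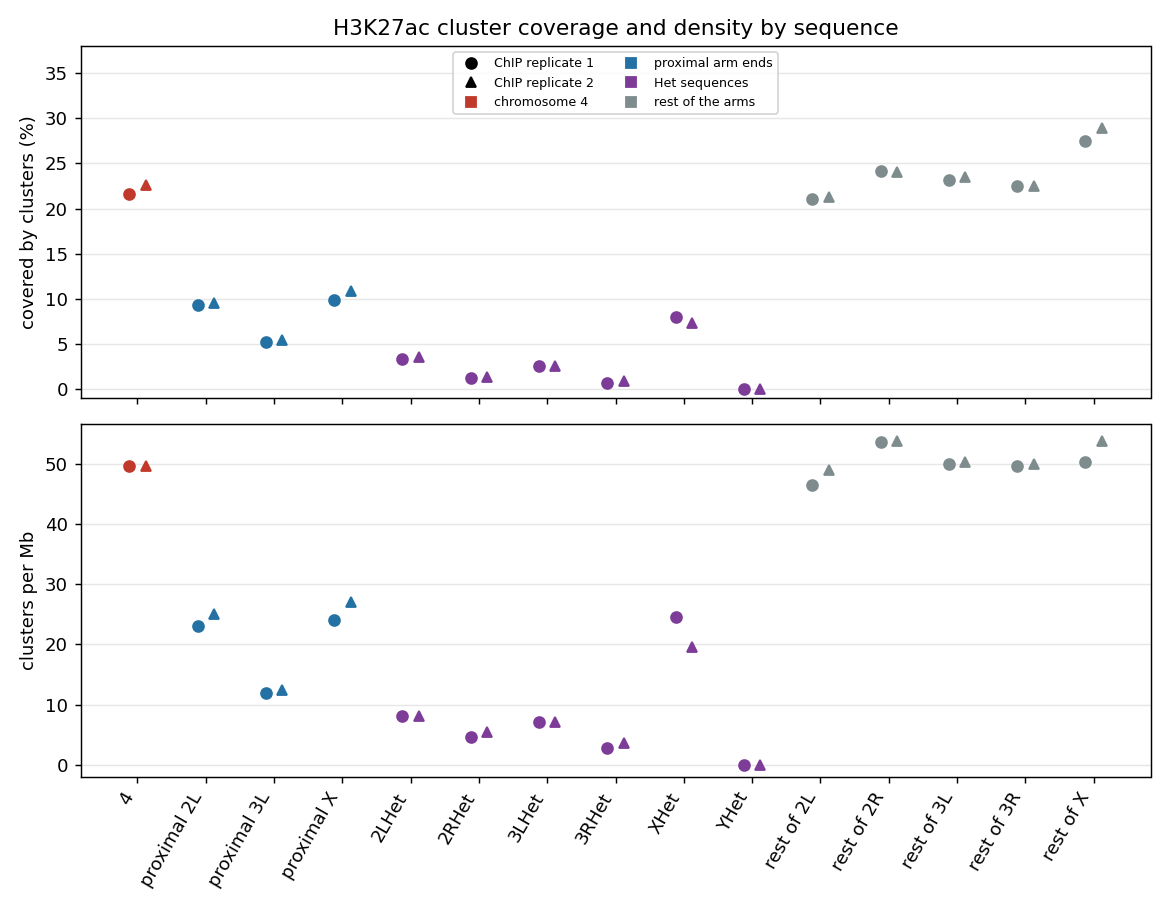
Share of sequence under H3K27ac clusters (upper panel, percent) and clusters per Mb (lower panel) for each sequence or span, with circles for ChIP replicate 1 and triangles for replicate 2. Chromosome 4 lies near the rest of the arms, the proximal ends of 2L, 3L and X lie lower at 5.27% to 10.9% covered, and the Het sequences lie between 0 and 8.05%.

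The number of clusters, more than their size, separated these classes. Chromosome 4 held 67 clusters in each replicate, or 49.6 per Mb, the proximal ends 19.7 and 21.5 per Mb, and the Het sequences 5.17 and 5.60 per Mb, against 50.0 and 51.2 per Mb in the rest of the arms. The density of chromosome 4 was 9.22 ± 0.52 times that of the Het sequences, while its median width was 1.28 ± 0.05 times theirs. Median widths were 3293 and 3449 bp on chromosome 4, 3051 and 3012 bp in the proximal ends and 2647.5 and 2620 bp on the Het sequences, against 3084 and 3041.5 bp in the rest. Het clusters were thus the narrowest in both replicates, while proximal ends and rest differed by about as much as the replicates, whose SDs were 27.6 and 30.1 bp.

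In the replicate lists, long domains made up a smaller share of clusters in the proximal ends and on the Het sequences than elsewhere. Clusters of 10 kb or more numbered 6 of 67 and 7 of 67 on chromosome 4 (8.96% and 10.4%), 6 of 118 and 6 of 129 in the proximal ends (5.08% and 4.65%) and 1 of 48 and 1 of 52 on the Het sequences (2.08% and 1.92%). Over all clusters the shares were 9.07% in replicate 1 and 8.77% in replicate 2. The share on chromosome 4 is near that background, and those of the proximal ends and the Het sequences lie below it in both replicates, the last on 1 cluster each. In the authors' replicate-set list the proximal ends had more of them, 11 of 136 (8.09%), and the Het sequences 2 of 60 (3.33%), against 10.8% in the rest of the arms. The widest clusters measured 21269 and 23999 bp on chromosome 4, 23594 and 24219 bp in the proximal ends and 16027 and 16655 bp on the Het sequences, against 64422 and 57209 bp in the rest.

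Where clusters occurred in the proximal ends and on the Het sequences, they scored about as high as those of chromosome 4. The score is the authors' own value for each cluster, on a log2 scale, so that a difference of 1 is a doubling. The sources used here do not say which quantities the underlying ratio compares. The median score was 0.99 and 1.00 on chromosome 4, 1.04 and 0.98 in the proximal ends and 0.99 and 1.00 on the Het sequences, against 0.85 and 0.81 in the rest of the arms. Chromosome 4 and the Het sequences differed by 0.0024 ± 0.0041, and no order among the 3 classes held in both replicates. All 3 lay above the rest in each replicate, chromosome 4 by 0.17 ± 0.03, the proximal ends by 0.18 ± 0.02 and the Het sequences by 0.16 ± 0.03.

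That gap to the rest was not uniform over the arms. The rest of the X had a median score of 0.99 and 1.01, as high as the 3 classes, while the rest of 2L, 2R, 3L and 3R had medians between 0.74 and 0.82. By arm, the proximal end of 2L had a median of 1.02 and 1.00 against 0.81 and 0.74 for the rest of 2L. The proximal end of 3L had 1.21 and 1.24 against 0.82 and 0.76 for the rest of 3L. On the X the proximal end had 0.99 and 0.90 against 0.99 and 1.01 for the rest, so it was not higher there. Among the Het sequences, the median was 1.07 and 1.01 on 2RHet, 0.89 and 0.86 on 3LHet, 0.92 and 0.99 on 2LHet and 0.99 and 1.20 on XHet. On 3RHet it was 1.28 and 0.81 (7 and 9 clusters), above the rest of the arms in replicate 1 and level with it in replicate 2.

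High scores made up a large share of the Het clusters. Of the Het clusters, 10 of 48 in replicate 1 and 13 of 52 in replicate 2 fell among the highest 10% of their own list (20.8% and 25%, against 10% of all clusters by construction). On chromosome 4 the counts were 7 and 10 of 67 (10.4% and 14.9%), and in the proximal ends 13 of 118 and 16 of 129 (11.02% and 12.4%), close to that background. The rest of the X also exceeded it, with 178 of 1028 and 208 of 1097 (17.3% and 19.0%), so a surplus of high scores was not particular to the Het sequences. Of the classes of width used, Het clusters had the highest median score in both replicates only at 2 to 5 kb. Among clusters of 2 to 5 kb, the median score was 0.99 and 1.02 on chromosome 4 (44 and 45 clusters), 1.06 and 0.97 in the proximal ends (81 and 90) and 1.13 and 1.15 on the Het sequences (36 and 39), against 0.82 and 0.79 in the rest. Under 2 kb the classes were closer, at 0.44 and 0.44 on chromosome 4, 0.51 and 0.56 in the proximal ends and 0.53 and 0.45 on the Het sequences, against 0.52 and 0.50 in the rest. Only 4 Het clusters per replicate reached 5 kb, with median scores of 0.95 and 1.04, against 1.27 and 1.24 for clusters of that width in the rest. Spearman's rho between width and score across clusters was 0.64 and 0.64 on chromosome 4, 0.70 and 0.69 in the proximal ends and 0.66 and 0.77 on the Het sequences, against 0.81 and 0.80 in the rest. These relations are across clusters of one library, which are not independent replicates.

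**Figure D2:**
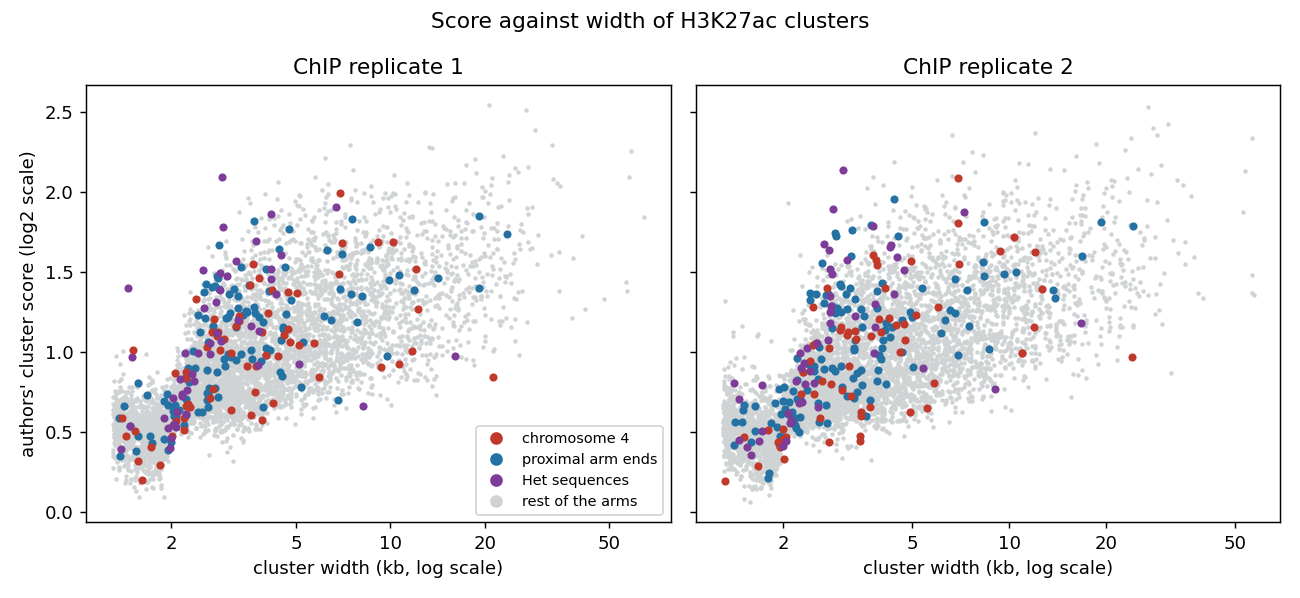
Authors' cluster score (log2 scale) against cluster width (kb, logarithmic axis) in ChIP replicate 1 and replicate 2, with 1 point per cluster. Het clusters, in purple, are mostly narrower than 5 kb and reach 2.09 in replicate 1 and 2.13 in replicate 2, while those of the rest of the arms, in grey, extend to 64422 bp.

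Spacing set chromosome 4 apart from the arms of equal density. The median gap between neighbouring clusters was 11081 and 11743 bp on chromosome 4, 9889 and 9036 bp in the proximal ends and 69584 and 68862 bp on the Het sequences, against 5259 and 5141 bp in the rest. The mean gap on chromosome 4, 15053 and 14502 bp, was however close to the 15249 and 14815 bp of the rest. Gaps under 5 kb made up 25.8% and 24.2% of gaps on chromosome 4, 38.3% and 40.5% in the proximal ends and 16.3% and 21.3% on the Het sequences, against 48.7% and 49.1% in the rest. Gaps of 100 kb or more made up 1.52% on chromosome 4 (1 gap in each replicate), 13.04% and 11.9% in the proximal ends and 39.5% and 38.3% on the Het sequences, against 2.66% and 2.39% in the rest. Clusters of chromosome 4 were thus more evenly spaced than those of the rest, with fewer short gaps and 1 long one in each replicate. In the authors' replicate-set list no gap of chromosome 4 reached 100 kb, the longest being 90338 bp.

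The distance from a cluster to its nearest neighbour shows the same. Its median was 7.09 and 7.26 kb on chromosome 4, 3.17 and 3.12 kb in the proximal ends and 33.9 and 18.1 kb on the Het sequences, against 2.18 and 2.13 kb in the rest. No cluster of chromosome 4 lay 50 kb or more from its neighbour, which is near the 1.03% and 0.83% of clusters in the rest of the arms. In the proximal ends 11 of 118 and 11 of 129 did so, and on the Het sequences 17 of 48 and 19 of 52. A neighbour within 5 kb was found for 60.2% and 61.2% of clusters in the proximal ends, below the 72.6% and 72.9% in the rest of the arms. In windows of 100 kb, none of the 13 on chromosome 4 was empty, 20 and 19 of 60 were empty in the proximal ends and 59 and 57 of 90 on the Het sequences, against 68 and 55 of 1129 in the rest.

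**Figure D3:**
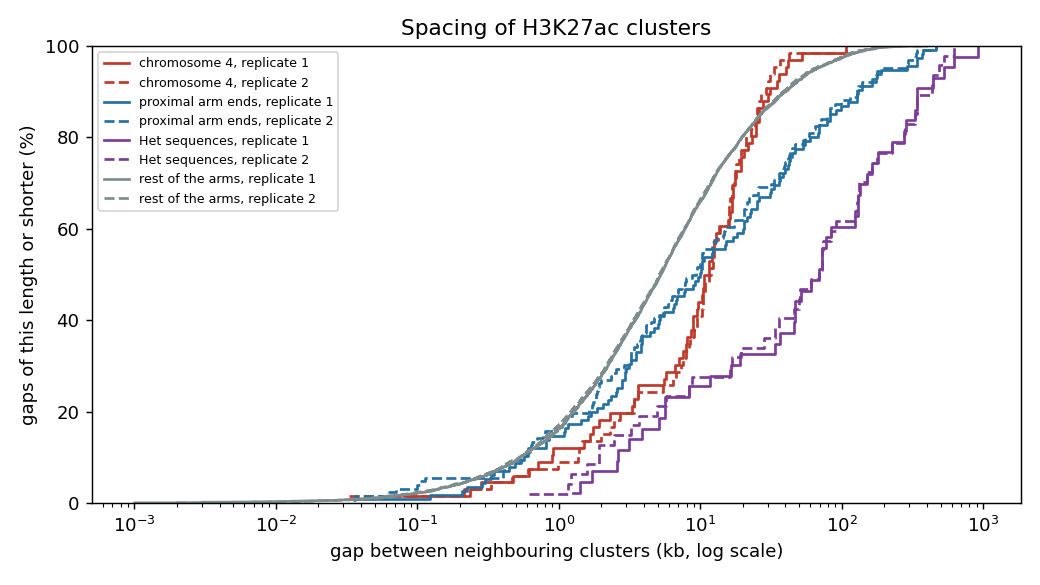
Cumulative share of gaps (percent) by gap length (kb, logarithmic axis) between neighbouring clusters on one sequence, with solid lines for ChIP replicate 1 and dashed lines for replicate 2. The line of chromosome 4 rises late and steeply around its medians of 11081 and 11743 bp, and that of the Het sequences lies far to the right, with medians of 69584 and 68862 bp.

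On chromosome 4, clusters were found along nearly the whole sequence, from 62155 to 1347453. Nothing was called in either replicate over the first 62.2 kb. By bins of 100 kb, coverage was highest from 1000001 to 1100000, at 45.2% and 46.6%, and lowest from 700001 to 800000, at 5.53% and 5.61%. Bins with 31.9% to 34.9% in each replicate lay at 100001 to 200000, 500001 to 600000 and 800001 to 900000. The low bin contains most of the longest stretch of chromosome 4 with no cluster in either replicate list, 107 kb from 718159 to 825652. The next longest stretches were 42.0 kb from 1237834 to 1279840 and 36.2 kb from 1106243 to 1142429.

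The strongest region of chromosome 4 spanned 573848 to 580823, with scores of 1.99 in replicate 1 and 2.08 in replicate 2 and a width of 6.94 ± 0.03 kb. It was the highest of the chromosome in both replicates. The next 4 by mean score lay at 678510 to 685620 (1.68 and 1.81), 148282 to 158631 (1.68 and 1.72), 1045220 to 1054688 (1.68 and 1.63) and 86062 to 98145 (1.52 and 1.62). Their order is not resolved, since the first 3 had nearly equal scores in replicate 1.

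The widest region of chromosome 4, from 1000114 to 1024112, scored low for its size. It formed 1 cluster of 23999 bp in replicate 2 and 2 clusters in replicate 1, the larger of 21269 bp, with highest scores of 0.97 and 0.84. Of the other 4 widest, 101527 to 114169 measured 12.5 ± 0.27 kb with scores of 1.27 and 1.40, and 86062 to 98145 measured 12.1 ± 0.04 kb. The remaining pair were 843932 to 855841 (11.8 ± 0.12 kb, scores 1.01 and 1.15) and 825653 to 836606 (10.8 ± 0.23 kb, scores 0.93 and 0.99). The region at 825653 follows directly on the 107 kb stretch without clusters, and 1 region of lower score (836979 to 843801, 0.58 and 0.63) lies between the pair.

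In the proximal arm ends, the course of coverage toward the centromere differed between the arms and was even on none. The final 500 kb were covered to 3.70% and 3.93% on 2L, 1.04% and 1.06% on 3L and 3.92% and 4.16% on the X. The outermost 500 kb of the same spans had 18.3% and 18.5% on 2L, 15.4% and 15.6% on 3L and 6.81% and 7.63% on the X. In bins of 500 kb the final one was thus the lowest on each arm, but in bins of 250 kb this held on 3L alone. On 2L the lowest 250 kb bin was centred 1.125 Mb from the end, with 0 and 0.87% against 4.32% and 4.23% in the final bin. On the X the lowest was centred 0.375 Mb from the end, with 3.48% and 3.41% against 4.37% and 4.91% in the final bin. The outermost bin of the X had 3.75% and 3.85%. On 3L the 3 inner bins of 500 kb had between 1.04% and 3.03% in either replicate. Its outermost 500 kb were uneven, with 6.46% and 5.90% in the outer 250 kb and 24.4% and 25.4% in the inner 250 kb. On the X the highest bin was the second from outside, from 20922828 to 21422827, at 20.4% and 22.4%. The most covered 250 kb bins reached 26.2% and 26.6% on 2L, 24.4% and 25.4% on 3L and 21.4% and 26.4% on the X. These are close to the 23.6% and 23.9% of the rest of the arms, so the spans mix arm-like and sparse sequence. The proximal end as a whole had 0.44 ± 0.0042 times the coverage of the rest of 2L, 0.23 ± 0.0042 times that of the rest of 3L and 0.37 ± 0.01 times that of the rest of X. For comparison, the first 2 Mb of 2R, which face the centromere and are not among the regions chosen here, had 10.6% and 11.1%, and those of 3R had 28.2% and 28.3%.

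**Figure D4:**
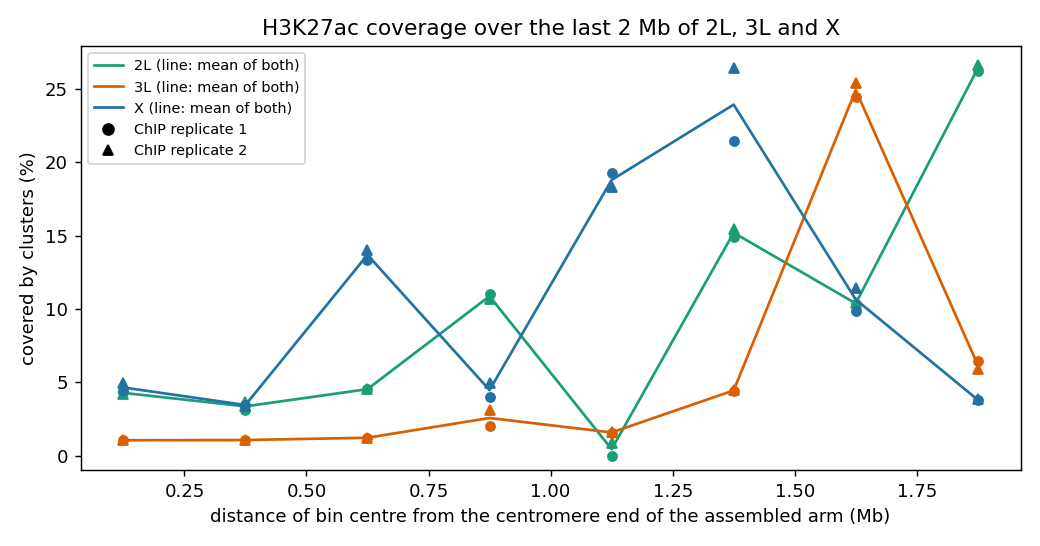
Share of sequence under H3K27ac clusters (percent) in bins of 250 kb over the last 2 Mb of 2L, 3L and X, by distance of the bin's centre from the centromere end of the assembled arm (Mb). Circles are ChIP replicate 1, triangles replicate 2 and lines their mean; 3L stays at or below 4.45% up to 1.375 Mb from its end, while 2L and X rise and fall several times.

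Scores did not fall with coverage. In the final 500 kb of 2L the 7 clusters of each replicate had a median score of 1.25 and 1.23, against 0.97 and 1.02 for the 21 and 23 clusters of the outermost 500 kb. On 3L, 2 clusters per replicate in the final 500 kb had a median of 1.24 and 1.43, against 1.02 and 1.00 for 14 clusters outermost. On the X, 7 clusters had a median of 1.22 and 1.07, against 0.79 and 0.78 for 10 and 11. In each arm and each replicate, the few clusters nearest the centromere thus had a higher median than the outermost ones. The middle bins of 3L had 1.36 and 1.39 in replicate 1, above the final bin, and 1.34 and 1.27 in replicate 2, below it. On 2L the medians did not change steadily, at 0.96 and 0.89 in the second bin from the end and 1.24 and 1.15 in the third. A region at 24529451 to 24532094, 11.5 kb from the end of 3L, scored 1.43 and 1.56 although the 461 kb before it (24068924 to 24529450) held no cluster.

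On 3L the region of highest mean score lay at 22856142 to 22859883, with 1.82 and 1.80, in a narrow cluster of 3.70 ± 0.04 kb. It was close to the widest region of all the proximal ends, 22813167 to 22837385, 23.9 ± 0.44 kb across, which scored 1.73 and 1.79. Another named region, 22859984 to 22867038 (6.91 ± 0.13 kb, scores 1.61 and 1.46), starts 100 bp beyond the first. These 3 regions belong to the outermost 500 kb of the 3L span.

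On 2L the highest mean scores were at 21572004 to 21575268 (1.48 and 1.76) and 21214133 to 21222746 (1.66 and 1.56), and their order differed between replicates. The widest were 21616922 to 21631142, at 14.1 ± 0.24 kb, and 21307389 to 21318045, at 10.6 ± 0.12 kb. On the X, 21232049 to 21251346 was both the widest, at 19.2 ± 0.03 kb, and the highest by mean score, at 1.85 and 1.81. A region nearer the centromere, 21878452 to 21894533, followed with 1.83 and 1.81, a difference within the spread between replicates, and consisted of 2 clusters in each replicate. The highest single score of the proximal ends in replicate 2, 1.95, belonged to a region close by, 21855750 to 21860314, which scored 1.64 in replicate 1 and was picked out after its values were seen. The second widest on the X, 21133502 to 21154043, was 1 cluster of 19129 bp in replicate 1 but 3 clusters in replicate 2, the largest of 16838 bp. The X end also held the stretches without clusters of 342 kb (21502117 to 21844346) and 336 kb (22060467 to 22396501), after which clusters resumed up to 22416628, 6.20 kb from the end.

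The Het sequences differed among themselves. XHet was covered to 8.05% and 7.38%, 2LHet to 3.42% and 3.62%, 3LHet to 2.56% and 2.63%, 2RHet to 1.22% and 1.42% and 3RHet to 0.77% and 0.95%, and this order was the same in both replicates. YHet, 347 kb long, held no cluster in either list. XHet (204 kb) and 2LHet (369 kb) are the shortest of the others and held 5 and 3 merged regions, against 19 on 2RHet, 18 on 3LHet and 9 on 3RHet. XHet alone came within the range of the proximal arm ends.

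Long parts of the Het scaffolds held no cluster. On XHet all 5 regions lay between 56149 and 85268, a span of 29.1 kb. On 3RHet the first 1704 kb held no cluster in either replicate, and all 9 regions fell between 1704156 and 2475708. On 3LHet, a stretch of 618 kb from 1571274 to 2189340 was free of clusters. On 2RHet the longest free stretches were 531 kb from 472595 to 1003711 and 490 kb from 2285517 to 2775056, the second bounded by a region that was called in replicate 2 only. How much of these stretches could hold uniquely placed reads is unknown here, so missing clusters cannot be told apart from missing reads.

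The Het region of highest mean score lay at 1767256 to 1770307 on 3RHet, with 2.09 in replicate 1 and 2.13 in replicate 2 and a width of only 2.98 ± 0.10 kb. It was the highest of all 246 regions in both replicates. Next came 29739 to 36965 on 2LHet (1.91 and 1.87) and 458680 to 461593 on 3LHet (1.78 and 1.89), followed by 1333770 to 1337705 (1.69 and 1.79) and 3176768 to 3181256 (1.86 and 1.59) on 2RHet. Below the first, the order differed between replicates. The widest Het region was 204425 to 221079 on 3LHet, at 16.3 ± 0.44 kb and scores of 0.98 and 1.18. It is followed, after 789 bp, by the second widest, 221869 to 231329 (8.59 ± 0.62 kb, scores 0.66 and 0.77). The 2LHet region already named followed at 6.96 ± 0.37 kb. After it came 66334 to 71780 on XHet, at 5.26 ± 0.23 kb and scores of 0.93 and 0.90, and 196901 to 201637 on 2RHet, at 4.61 ± 0.18 kb and scores of 1.60 and 1.51.

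Both replicates called these regions at nearly the same places. In replicate 1, 65 of 67 clusters of chromosome 4, 116 of 118 of the proximal ends and 46 of 48 of the Het sequences overlapped a cluster of replicate 2, which is 97.0%, 98.3% and 95.8% (95% Wilson intervals 89.8 to 99.2, 94.0 to 99.5 and 86.0 to 98.8). The background over all clusters was 91.9%. In replicate 2 the counts were 63 of 67, 116 of 129 and 46 of 52, or 94.0%, 89.9% and 88.5%, against a background of 90.4%. The intervals cover counting error only, read depth being unknown. Clusters of one library are not independent replicates, so the intervals are no test against the background. The proximal ends had 116 matched clusters in each list, so their shares differ with the number of clusters listed. Among clusters matched 1 to 1, starts differed by a median of 83 bp on chromosome 4 and 86 bp in the proximal ends and on the Het sequences, and ends by 120, 135.5 and 48.5 bp. Across matched clusters, Spearman's rho between the scores of both replicates was 0.94 on chromosome 4 (n = 65), 0.93 in the proximal ends (n = 116) and 0.95 on the Het sequences (n = 46), against 0.89 in the rest (n = 5182).

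**Figure D5:**
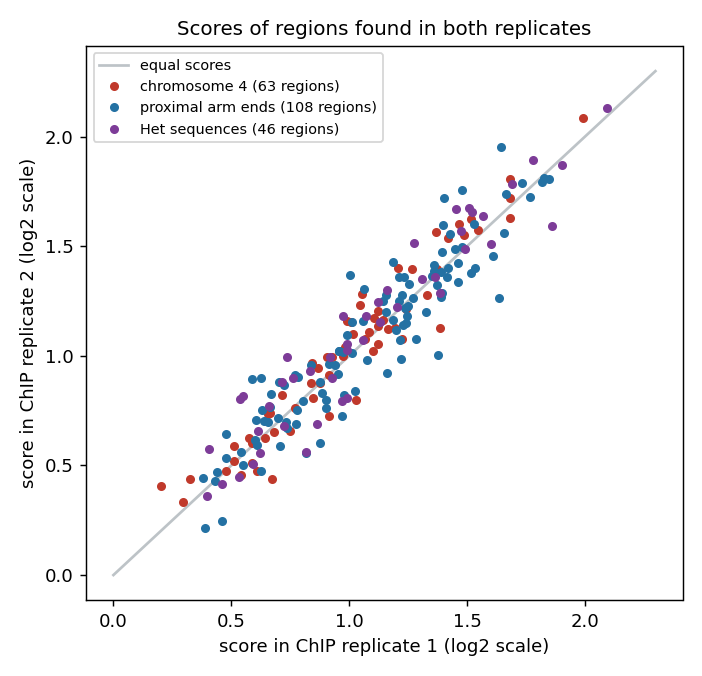
Score of each region in ChIP replicate 2 against its score in ChIP replicate 1 (both on the authors' log2 scale), for the 63, 108 and 46 regions of chromosome 4, the proximal arm ends and the Het sequences found in both lists. Points lie along the line of equal scores up to the 3RHet region at 2.09 and 2.13.

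Of the 246 merged regions, 217 (88.2%) were in both lists, against 82.8% over all 6140, and 6 were in replicate 1 only and 23 in replicate 2 only. By class, 63 of 69 on chromosome 4, 108 of 123 in the proximal ends and 46 of 54 on the Het sequences were shared. Regions found in 1 list were narrow, with a median of 1667 bp against 3353 bp for shared ones. The same held over all 6140 regions, at 1676 bp against 3776 bp. The 2 with the highest score in each class, which span a wide range, were 341570 to 343020 on 2RHet (1.40, replicate 1), 23664707 to 23667597 on 3L (1.24, replicate 2), 1345949 to 1347453 on chromosome 4 (1.02, replicate 1), 21112705 to 21116180 on the X (0.89, replicate 2), 2284110 to 2285516 on 2RHet (0.81, replicate 2) and 363366 to 364877 on chromosome 4 (0.47, replicate 2). A region split into several clusters in at least 1 replicate was the case for 2 of 63 shared regions on chromosome 4, 10 of 108 in the proximal ends and 0 of 46 on the Het sequences, against 542 of 4850 (11.2%) in the rest.

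The edges of the spans fell between clusters, and no cluster crossed one. Just inside the start used for 2L lay clusters scoring 0.78 in replicate 1 (from 21031989) and 0.56 in replicate 2 (from 21012401), and just outside it 0.73 and 0.74. On 3L the values were 0.66 and 0.70 inside and 0.61 and 0.79 outside, and on the X 1.24 and 1.22 inside and 0.72 and 0.77 outside.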

How the data were processed

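ChIP and input libraries from adult heads were processed with Bowtie 0.12.7, a short-read aligner named in the submitters' processing notes. The authors deposited lists of enrichment clusters, 1 per ChIP replicate and 1 for the replicate set, on FlyBase release 5, per the file headers, whose sequence lengths were the denominators. Per the labels, each ChIP library was called with the input of its own number. The cluster caller, its thresholds and its treatment of reads from repeats are not stated in the sources used here, and depth is unknown. Each deposited score is on a log2 scale, as settled from the values: raised to base 2, differences from the commonest score of a list were ratios of whole numbers (denominators up to 20000, relative tolerance 1e-12) for 100% and 99.97% of clusters in replicates 1 and 2, against 0.34% and 0.28% with base e.

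In the replicate-set list, 1 entry marked as depleted was left out. Overlapping clusters (1 bp or more) of both replicates were merged into regions. A region's score and width in a replicate are those of its highest-scoring and its widest cluster there. Coverage, density, width, score and gaps were computed per replicate, and gaps lie between neighbouring clusters of one class on one sequence. No differences between classes were tested. Regions named are the 5 highest by mean score and the 5 widest on chromosome 4 and on the Het sequences, 2 of each per proximal arm end, the 2 highest found in 1 list per class, and the 3 longest gaps per class; other regions and bins given by position were singled out after their values were seen. The regions and lists were chosen with earlier results of these data known. Genes and sequences are not given, since no genome or annotation of release 5 was used here. The functions for overlap, merging, coverage and gaps were tested on simulated lists and returned the known answers in 20 of 20 runs. Alternatives were the replicate-set list, scores at or above the list median, merging within 500 bp, windows of 10 kb, 50% reciprocal overlap and leaving out each replicate. Software versions were matplotlib 3.10.9, scipy 1.17.1, pandas 2.3.3 and numpy 2.4.6 under Python 3.11.15.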

Additional observations from a re-analysis of the deposited data

Results flagged for a closer look

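The replicate-set list, compared above only for clusters of 10 kb or more and the longest gap of chromosome 4, held clusters that the replicate lists did not. Its highest score, 3.61, belonged to a cluster of 1160 bp on 3RHet from 1720117 to 1721276, which overlapped no cluster of either replicate. It lay between the 3RHet regions that start at 1704156 and 1767256. The next 4 scores of that list, from 3.03 to 2.51, belonged to clusters of 1001 to 1002 bp outside the regions described here, which likewise overlapped neither replicate list. Without such clusters, the highest replicate-set score on the Het sequences was 2.08, for the region that was highest in both replicates.

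Replicate-set clusters that overlapped neither replicate list numbered 11 of 76 on chromosome 4, 17 of 136 in the proximal arm ends and 7 of 60 on the Het sequences, or 14.5%, 12.5% and 11.7%, against 17.1% in the rest of the arms. Their median scores were 0.41, 0.39 and 0.49, against 0.91, 0.93 and 0.89 for the other replicate-set clusters of the same classes. After the 3RHet cluster, the highest of them were 1776582 to 1778736 on 2RHet (1.32) and 1317754 to 1318827 on chromosome 4 (1.15).

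The unplaced sequence U, which holds fragments not assigned to a chromosome and is not part of the regions described here, carried 14 clusters in replicate 1 and 18 in replicate 2. U is 10.05 Mb long, so these are 1.39 and 1.79 clusters per Mb, against 5.17 and 5.60 per Mb on the Het sequences.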

How the results depend on the processing

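Of 29 values under alternatives other than leaving out a replicate, over 10 results, 9 moved by less than the SD between replicates and 20 moved further. No ratio crossed 1. In the replicate-set list, covered share was 12.4 times higher on chromosome 4 than on the Het sequences and 2.58 times higher than in the proximal ends, whose ratio to the rest of their own arms was 0.33 in place of 0.35. The same list gave a score difference of chromosome 4 minus Het of -0.029, a width ratio of 1.36 and a gap ratio (Het over chromosome 4) of 4.64 in place of 6.07. Chosen after seeing the data, the same list gave shares of clusters of 10 kb or more of 8.09% in the proximal ends in place of 4.87% (4.65% and 5.08% with 1 replicate left out) and of 3.33% on the Het sequences in place of 2.00% (1.92% and 2.08%). With scores at or above the list median, chromosome 4 over the proximal ends was 2.43, proximal ends over Het 5.36, proximal ends over the rest of their arms 0.37, the width ratio 1.38 and the gap ratio 5.71; the score difference became -0.16, so that Het clusters scored higher within that selection. Fewer clusters enter each. Merging within 500 bp gave a width ratio of 1.34 and a gap ratio of 5.73. Windows of 10 kb holding a cluster gave 8.25 for chromosome 4 over Het in place of 12.8, 2.52 over the proximal ends, 3.27 for the proximal ends over Het in place of 4.87 and 0.44 for the proximal ends over the rest, since a window counts whole. The causes of the other shifts were not tested.

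Leaving out either replicate gave 12.6 to 12.99 for chromosome 4 over Het, 2.62 to 2.64 over the proximal ends and 5.86 to 6.28 for the gap ratio. The share of clusters matched in the other replicate was 94.1%, with 90.7% and 97.4% for single replicates and 90.7% with 50% reciprocal overlap. No paired analysis was possible because ChIP and input libraries, which share replicate numbers, have no separate values here: each input is already contained in the deposited calls. Each Het value rests on few clusters, and depth and the share of each sequence open to unique reads are unknown.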

Other observations

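Scores moved slightly apart between the replicates. Among clusters matched between the lists, the median change of replicate 2 minus replicate 1 was 0.04 on chromosome 4 (higher in replicate 2 for 43 of 65), 0.01 in the proximal arm ends (62 of 116) and 0.04 on the Het sequences (29 of 46), against -0.02 in the rest of the arms (2230 of 5182). These changes are smaller than the median SD of 0.06 between replicates of a single region and come from 1 pair of libraries.

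A smaller share of windows held 50% of the clusters on the Het sequences and in the proximal ends than in the rest. On chromosome 4 the share was not smaller. On the Het sequences, 10 of 90 windows of 100 kb in replicate 1 and 11 in replicate 2 held 50% of the clusters, as did 11 and 10 of 60 windows in the proximal ends and 5 of 13 on chromosome 4 in each replicate, against 321 and 325 of 1129 in the rest of the arms. Sparse clusters fill few windows however they are placed. The median per window was 0 on the Het sequences, 1 in the proximal ends and 5 in the rest in each replicate. These shares therefore do not show gathering beyond the lower density, which was not tested.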
